A study of Mus musculus with 24 samples.

Results

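The genes described here are 10 that encode proteins of the leukocyte membrane, Ptprc, Cd52, Cd53, Cd48, Cd37, Cd84, Cd33, Laptm5, Itgam and Itgb2. They were taken by symbol from a table of 33000 genes, and each symbol had 1 row. The table holds read counts of 24 3'Pool-seq libraries from the frontal cortex of 6 C57BL/6 mice, 3 months old. There were 3 wild-type (WT) mice and 3 homozygous GFAP-IL6 mice, in which a transgene drives Il6 from the promoter of the astrocyte gene Gfap, and no other treatment or allele is given in the labels. Each mouse gave 4 libraries from the same RNA, prepared from 2 ng or 1 ng of cDNA at the tagmentation step, each in a set A and a set B that the labels do not explain. The mouse was the replicate (n = 3 per genotype), and the 4 libraries of a mouse were summed for the main comparison, which asked how these genes differ between the genotypes.

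In the brain these genes are read mostly from microglia, the resident macrophages, and from the few blood leukocytes, border macrophages and perivascular cells that a dissected cortex contains. Ptprc is CD45, the receptor phosphatase carried by all nucleated blood cells, and microglia carry less of it than blood leukocytes do. Itgam and Itgb2 encode the αM and β2 chains of the integrin CR3, also called Mac-1 or CD11b/CD18, which binds complement fragments and ICAM-1 and serves phagocytosis and adhesion. Cd52 and Cd48 are anchored to the membrane by a lipid, Cd53 and Cd37 are tetraspanins that organize other membrane proteins, Cd48 and Cd84 belong to the SLAM family of recognition receptors, Cd33 is a sialic acid-binding inhibitory receptor, and Laptm5 is a lysosomal membrane protein of blood cells.

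The upstream sequences are shown because PU.1, the ETS factor that myeloid cells depend on, binds a core that reads GAGGAA on one strand and TTCCTC on the other. RefSeq windows on GRCm38.p6 were found for 8 of the 10 genes, and Ptprc had 2 windows, so 9 were searched. Windows for Cd52 and Itgb2 are not shown. From 100 bases before to 20 bases after the start site, GAGGAA on either strand occurred in 5 of the 9 windows, those of Cd84, Cd53, Laptm5, Cd37 and Itgam, against 11.97% of 32851 windows of all genes. Capitals mark the core.
Cd84 promoter, chr1:171839597-171839716, plus strand: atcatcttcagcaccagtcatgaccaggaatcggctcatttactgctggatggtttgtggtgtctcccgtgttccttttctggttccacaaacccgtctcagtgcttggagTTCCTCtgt
Cd53 promoter, chr3:106790130-106790249, minus strand: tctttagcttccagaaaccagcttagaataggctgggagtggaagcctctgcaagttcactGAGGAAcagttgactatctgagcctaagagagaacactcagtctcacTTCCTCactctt
Laptm5 promoter, chr4:130913216-130913335, plus strand: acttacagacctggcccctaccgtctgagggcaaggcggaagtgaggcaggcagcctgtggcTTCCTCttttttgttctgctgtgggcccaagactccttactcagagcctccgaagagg
Cd37 promoter, chr7:45238820-45238939, minus strand: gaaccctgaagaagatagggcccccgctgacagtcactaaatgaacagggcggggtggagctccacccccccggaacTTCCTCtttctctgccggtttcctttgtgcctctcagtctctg
Itgam promoter, chr7:128062540-128062659, plus strand: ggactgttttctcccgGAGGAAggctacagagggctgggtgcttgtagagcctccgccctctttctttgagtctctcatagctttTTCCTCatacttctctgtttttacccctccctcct
The Ptprc and Cd48 windows held no GAGGAA in these 120 bases, and Cd33 also had none. Over the whole 300 bases of the RefSeq windows the core was found in 7 of 9 member windows and in 28.3% of all windows. The letters TTCNNNGAA, which STAT factors bind, were in none of the 9 windows of 300 bases and in 8.3% of all. The letters TGTGGT, which RUNX factors bind, were in 4 of 9 and in 16.8% of all. Such matches describe letters only, and neither binding nor a link to the genotype difference was tested.

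Counts on genes were 7852743 to 37582644 per mouse after summing and 1524165 to 12256374 per library. Il6 was listed at 0 to 0.26 CPM in WT mice and 1.58 to 4.22 CPM in GFAP-IL6 mice, where CPM is a count scaled by the TMM-adjusted total of its library or mouse. Gfap rose by 2.44 on the log2 scale (adjusted p = 1.59e-06, edgeR quasi-likelihood test with Benjamini-Hochberg adjustment). One WT mouse, number 3, stood apart through Ttr, the transthyretin of choroid plexus, at 4034.9 CPM against 74.5 to 742.5 CPM in the other 5 mice. WT mouse 3 also had the smallest total, and values without it are given where a call turned on it.

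The 10 genes together were higher in every GFAP-IL6 mouse than in any WT mouse. Their summed CPM was 87.1, 96.1 and 81.0 in WT mice 1, 2 and 3 and 157.6, 201.6 and 239.8 in GFAP-IL6 mice 1, 2 and 3. The means were 88.1 ± 7.59 (SD, n = 3) and 199.6 ± 41.2 (SD, n = 3), a ratio of 2.27. The sums rested on 618 to 1736 reads per WT mouse and 1495 to 9252 reads per GFAP-IL6 mouse. Mixed tissue cannot show whether a mouse had more cells of a type or more RNA in each cell, so more cells and more RNA per cell cannot be told apart.

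All 10 genes passed the filter on low counts in the summed libraries, in which 14621 genes were tested. A gene was called when its adjusted p was under 0.05 and its log2 fold change was above 1 in size. Of the 10 genes 8 were called higher and none lower, where 1.2% of all genes tested were called higher. With no limit on the fold change 9 of the 10 passed as higher, against 1.74% of all genes. The median log2 fold change was 1.29 over the 10 genes and -0.01 over all 14621. For all 10 genes the lowest GFAP-IL6 mouse lay above the highest WT mouse, which was so for 8.43% of the genes tested. Because the 10 genes were chosen with earlier results of these data known, these contrasts with all genes are descriptions and no test of enrichment.

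**Figure D1:**
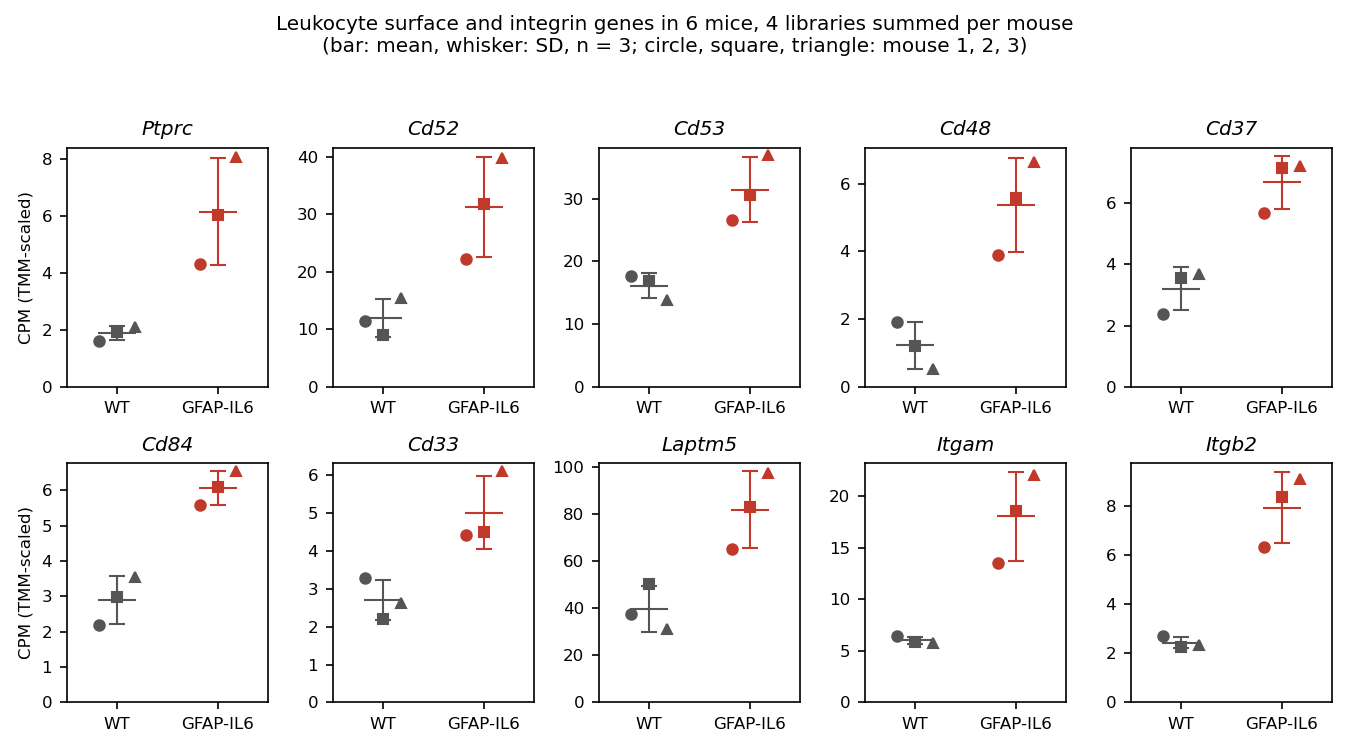
TMM-scaled CPM of each of the 10 genes in 3 WT mice (grey) and 3 GFAP-IL6 mice (red), with the 4 libraries of a mouse summed; each point is a mouse, bars are means and whiskers SD. No gene overlaps between the genotypes, and mouse 3 is the highest of the GFAP-IL6 mice in all 10 panels.

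Ptprc, which encodes CD45, was at 1.61, 1.94 and 2.10 CPM in the WT mice and at 4.32, 6.04 and 8.06 CPM in the GFAP-IL6 mice. The lowest GFAP-IL6 mouse was 2.06 times the highest WT mouse. Its log2 fold change was 1.78 (SE 0.27, 95% interval 1.20 to 2.35, adjusted p = 0.00144 by edgeR's quasi-likelihood test). Ptprc is a low count gene here, with 16 to 35 reads per WT mouse and 1 to 12 reads in a single WT library. It was called under all 14 alternatives run on the summed libraries.

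The integrin chains had the narrowest spread among WT mice relative to their means and the widest gaps between the genotypes. Itgam, the αM chain, was at 6.45, 5.87 and 5.77 CPM in WT mice and at 13.5, 18.6 and 22.1 CPM in GFAP-IL6 mice, so the lowest GFAP-IL6 mouse was 2.09 times the highest WT mouse. For Itgam the log2 fold change was 1.60 (SE 0.18, adjusted p = 7.48e-05, edgeR quasi-likelihood test), the smallest adjusted p of the 10 genes. Itgb2, the β2 chain with which Itgam pairs, was at 2.70, 2.27 and 2.36 CPM in WT mice and at 6.32, 8.39 and 9.12 CPM in GFAP-IL6 mice. Its gap was the widest of the 10 genes, at 2.34 times, and its log2 fold change was 1.71 (SE 0.21, adjusted p = 0.000273, edgeR quasi-likelihood test). In single libraries Itgam separated fully, with all 12 GFAP-IL6 libraries at 10.04 to 32.1 CPM and all 12 WT libraries at 4.16 to 8.42 CPM. None of the other 9 genes did so, and 0.533% of all genes tested did.

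The lipid-anchored Cd52, a short glycopeptide of lymphocytes and macrophages, was at 11.4, 8.97 and 15.5 CPM in WT mice and at 22.2, 31.7 and 39.7 CPM in GFAP-IL6 mice. WT mouse 3 was the nearest to the GFAP-IL6 mice. Cd52 had a log2 fold change of 1.46 (SE 0.20, adjusted p = 0.000685, edgeR quasi-likelihood test). Cd48, the other lipid-anchored gene and the ligand of the SLAM receptor Cd244, was at 1.92, 1.22 and 0.52 CPM in WT mice and at 3.90, 5.56 and 6.64 CPM in GFAP-IL6 mice. WT mouse 3 had 4 reads of Cd48. For Cd48 the log2 fold change was 2.03 (SE 0.33, adjusted p = 0.00254, edgeR quasi-likelihood test), the largest of the 10 by value, with an interval of 1.33 to 2.73 that covers those of Ptprc and Itgb2 in part.

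The tetraspanin Cd53 was at 17.6, 16.9 and 13.9 CPM in WT mice and at 26.7, 30.6 and 37.0 CPM in GFAP-IL6 mice. Its log2 fold change of 0.96 (SE 0.14, adjusted p = 0.000841, edgeR quasi-likelihood test) lay just under the limit of 1, so Cd53 was not called. It passed that limit without WT mouse 1 (1.02) and without GFAP-IL6 mouse 1 (1.05). Cd37, the other tetraspanin, was at 2.39, 3.54 and 3.67 CPM in WT mice and at 5.69, 7.14 and 7.23 CPM in GFAP-IL6 mice, with a log2 fold change of 1.11 (SE 0.22, adjusted p = 0.0135, edgeR quasi-likelihood test). WT mouse 1 was the lowest of the 6 mice for Cd37. The call of Cd37 was lost without WT mouse 1 (0.92, adjusted p = 0.0794), without GFAP-IL6 mouse 2 (1.07, adjusted p = 0.0793) and without GFAP-IL6 mouse 3 (1.05, adjusted p = 0.105).

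Cd84, a SLAM receptor that binds itself on a neighbouring cell, was at 2.18, 2.99 and 3.54 CPM in WT mice and at 5.59, 6.09 and 6.53 CPM in GFAP-IL6 mice. The GFAP-IL6 mice differed least for this gene, with an SD of 7.8% of the mean. The log2 fold change of 1.12 (SE 0.23, adjusted p = 0.0148, edgeR quasi-likelihood test) was called. Without WT mouse 1 it was 0.93 with an adjusted p of 0.0883, and without WT mouse 2 it was 1.18 with 0.0534. Leaving out GFAP-IL6 mouse 2 or 3 also ended the call of Cd84, at an adjusted p of 0.0689 and 0.121. Down-sampling the summed counts to equal totals gave 0.77 with an adjusted p of 0.236.

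Cd33, the sialic acid-binding receptor, was at 3.28, 2.21 and 2.62 CPM in WT mice and at 4.43, 4.51 and 6.12 CPM in GFAP-IL6 mice. The groups did not overlap, but the lowest GFAP-IL6 mouse was only 1.35 times the highest WT mouse. A log2 fold change of 0.91 (SE 0.25, 95% interval 0.38 to 1.43) had an adjusted p of 0.0988 by edgeR's quasi-likelihood test, which missed the threshold. Laptm5, the lysosomal membrane gene, was at 37.5, 50.2 and 31.1 CPM in WT mice and at 64.9, 82.9 and 97.4 CPM in GFAP-IL6 mice. Its gap was the narrowest of the 10 genes, at 1.29 times. Its log2 fold change of 1.04 (SE 0.16, adjusted p = 0.00156, edgeR quasi-likelihood test) was just inside the limit of 1 on the fold change. It fell under that limit without WT mouse 1 (0.99), without WT mouse 3 (0.91) and without GFAP-IL6 mouse 3 (0.89), with adjusted p at or under 0.00923 in all 3 fits.

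The exact two-sided permutation test over the 6 mice gave p = 0.1 for each of the 10 genes, which is the smallest p that 3 mice against 3 allow. Without GFAP-IL6 mouse 3 the number of these genes called fell from 8 to 5, and the number of all genes called in either direction fell from 180 to 106. Leaving out any other mouse left 6 to 9 of the 10 genes called.

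The genes did not all take the same part in the rise. Laptm5 held 38.3% to 52.2% of the reads of the 10 genes in WT mice and 40.6% to 41.2% in GFAP-IL6 mice, so it was the main source of the summed value in both genotypes. The share of Itgam was 6.11% to 7.40% in WT mice and 8.56% to 9.23% in GFAP-IL6 mice, and that of Itgb2 was 2.36% to 3.10% and 3.80% to 4.16%. Ptprc and Cd48 also had shares in the GFAP-IL6 mice above all WT mice. The share of Cd53 was below, at 15.2% to 16.9% against 17.2% to 20.2%. Shares of Cd52, Cd37, Cd84, Cd33 and Laptm5 overlapped between the genotypes. These are shares of counted reads and not of molecules per cell.

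Among the GFAP-IL6 mice the order was the same for all 10 genes, with mouse 1 lowest and mouse 3 highest. That order was seen in 19.6% of all genes tested and in 63.6% of the 176 genes called higher. It was also the order of the total counts, 9534116, 20641341 and 37582644 reads, and of Gfap, whereas Il6 was lowest in mouse 2. After down-sampling to 7852743 reads per mouse, 8 of the 10 genes kept the order, which was then seen in 20.5% of all genes tested and 54% of those called higher, and the summed CPM was 158.3, 211.8 and 243.0. The ratio of mouse 3 to mouse 1 ranged from 1.17 for Cd84 to 1.87 for Ptprc.

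Within the 4 sets the same 6 mice were compared again, so these comparisons are repeats of library preparation and not of mice. The sum of the 10 genes was 2.33 times the WT mean with 2 ng in set A, 2.23 times with 2 ng in set B, 2.33 times with 1 ng in set A and 2.21 times with 1 ng in set B. In every set the lowest GFAP-IL6 library was above the highest WT library, at 148.0 to 179.6 CPM for the lowest GFAP-IL6 and 92.9 to 100.2 CPM for the highest WT library of a set. Of 39 log2 fold changes that could be tested, all were above 0 and 21 were called. Of all genes tested in a set, 48.3% to 49% were above 0. Cd48 had too few reads to be tested with 2 ng in set B.

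**Figure D2:**
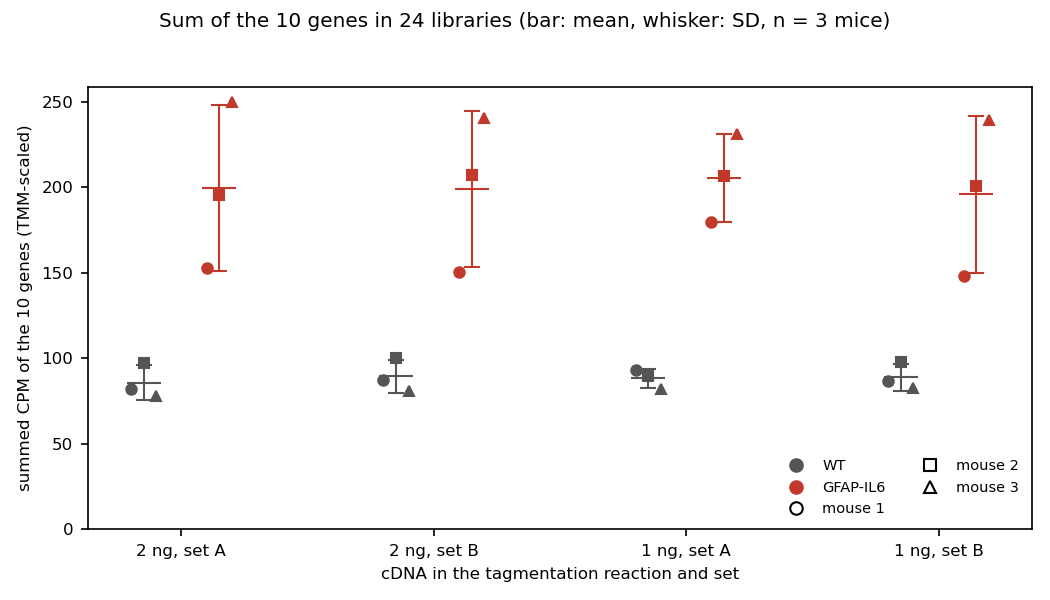
Summed TMM-scaled CPM of the 10 genes in each of 24 libraries, by the amount of cDNA and the set; each point is 1 library of 1 mouse, bars are means and whiskers SD over 3 mice. The GFAP-IL6 libraries lie at 148.0 CPM or above and the WT libraries at 100.2 CPM or below.

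With 2 ng in set A the genes called were Cd52, Cd48, Laptm5 and Itgam, 4 of 10, against 0.681% of genes tested. With 2 ng in set B they were Ptprc, Cd52, Cd37, Itgam and Itgb2, 5 of 9 tested, against 0.736%. With 1 ng in set A there were 7, Ptprc, Cd52, Cd53, Cd48, Laptm5, Itgam and Itgb2, against 0.758%. With 1 ng in set B there were 5, Cd52, Cd84, Laptm5, Itgam and Itgb2, against 0.748%. Only Cd52 and Itgam were called in all 4 sets, and Cd33 was called in none. Over the sets Cd52 had log2 fold changes of 1.26 to 1.73 and Itgam of 1.24 to 1.80. Laptm5 ranged least, from 0.995 to 1.10, and lay just under the limit in the set where it was not called.

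**Figure D3:**
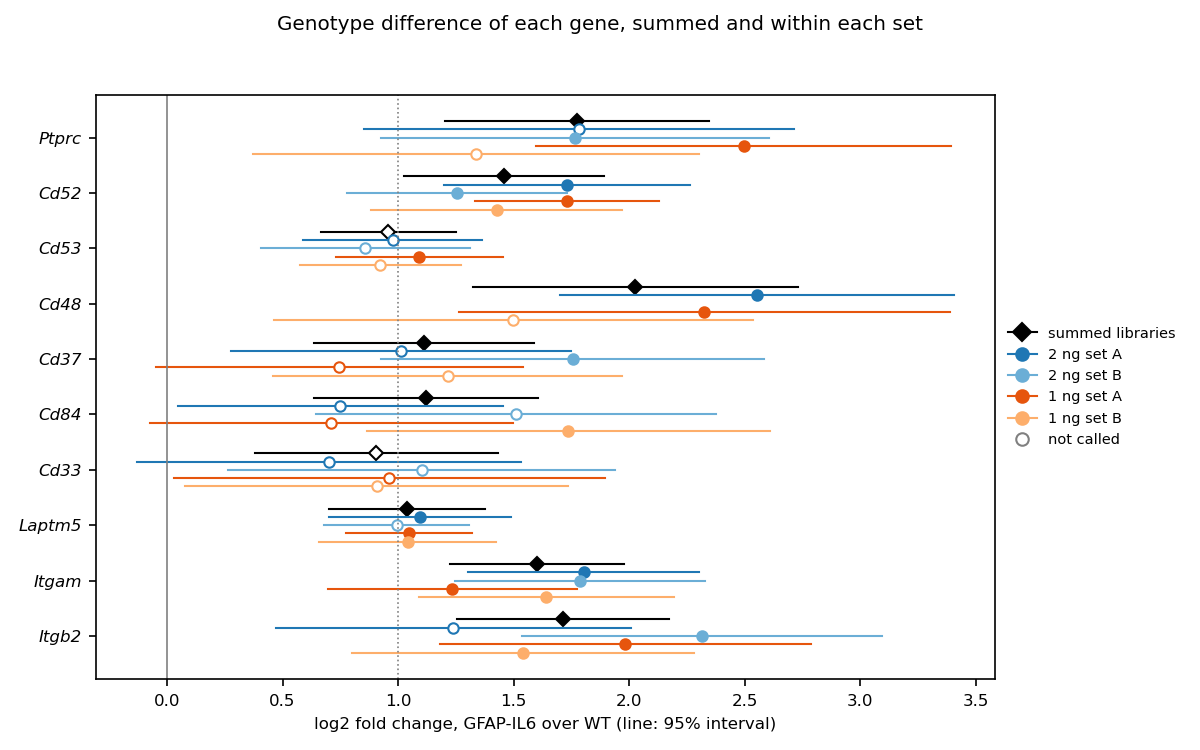
Log2 fold change of each gene, GFAP-IL6 over WT, from the summed libraries (black diamonds) and from each set (circles), with 95% intervals; filled symbols were called and open symbols were not. All symbols lie to the right of 0, and Cd33 is open in every set.

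Calls within sets depended on single mice. Without GFAP-IL6 mouse 3 the number called was 3 with 2 ng in set A, 2 with 2 ng in set B, 3 with 1 ng in set A and 1 with 1 ng in set B. Without WT mouse 1 it was 3 with 2 ng in set B and 2 with 1 ng in set B, and in the latter set it was 2 without WT mouse 2, 3 without WT mouse 3 and 3 without GFAP-IL6 mouse 2. Calls of all genes were not counted in these fits, so the falls cannot be set against all genes. In the summed libraries all genes called fell from 180 to 106 without GFAP-IL6 mouse 3. The 4 libraries of a mouse varied more than counting error alone for several genes. The variance of counts among the libraries over that expected from counting, which is about 1 for counting error alone, had a median of 1.45 over 60 pairs of gene and mouse and was above 2 in 25. Its median over mice was 3.54 for Cd52, 3.46 for Laptm5 and 3.16 for Cd48, 2.0 for Itgam, and 0.493 for Cd53. The largest value of the 60 pairs was 16.5, for Itgam in GFAP-IL6 mouse 3, whose libraries ran from 18.4 to 32.1 CPM.

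The amount of cDNA and the set were compared within mouse over all 24 libraries. Between 2 ng and 1 ng, 1 of the 10 genes differed, Itgam, which was higher with 2 ng by 0.35 on the log2 scale (adjusted p = 0.0125, edgeR quasi-likelihood test), where 26.1% of all genes passed. Between set B and set A, 2 of the 10 differed, where 26.2% of all genes passed. Cd48 fell by 0.67 and Itgam fell by 0.30 on the log2 scale in set B (adjusted p = 0.0146 and 0.0354). With genotype in place of the mouse as a term, none of these passed.

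Whether the genotype difference itself depended on the library was tested by interaction terms. For genotype by amount of cDNA 0 of the 10 genes passed in edgeR (0% of 13249 genes), 0 of the 10 and 269 of all genes had an unadjusted p under 0.05, and DESeq2 called 0 of all genes. For genotype by set 0 of the 10 passed in edgeR (0% of all genes), 1 of the 10 and 708 of all genes had an unadjusted p under 0.05, and DESeq2 called 0. The 1 gene was Cd84, whose log2 difference between the genotypes was larger in set B by 0.92 (95% interval 0.22 to 1.63, unadjusted p = 0.0112, adjusted p = 0.851).

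The genes that work with the β2 integrins were taken as a list of 14, of which 10 were tested. All 10 had log2 fold changes above 0, with a median of 0.86, where 48.1% of all genes tested were above 0. Jam3 and Tln1 changed sign when single mice were left out. Of the 10, 5 passed the adjusted p as higher, where 1.74% of all genes tested did. Called higher were 2, Icam1 and Vav1, where 1.2% of all genes tested were called higher. Icam1, a ligand of CR3, was at 1.09, 2.71 and 1.44 CPM in WT mice and at 5.38, 6.85 and 8.89 CPM in GFAP-IL6 mice (log2 fold change 2.01, SE 0.31, adjusted p = 0.00153, edgeR quasi-likelihood test). Vav1, an exchange factor that acts downstream of integrins in blood cells, had a log2 fold change of 1.51 and an adjusted p of 0.00527. Jam3 and Tln1, which many cell types of the cortex express, were at 0.06 (adjusted p = 0.952) and 0.03 (adjusted p = 0.975). The other β2 integrin α chains Itgal, Itgax and Itgad had too few reads to be tested, so Itgam was the only partner chain of Itgb2 that could be tested. Itgax had 0 reads in each WT mouse and 2, 5 and 21 reads in GFAP-IL6 mice 1, 2 and 3. Itgal and Itgad overlapped between the genotypes in CPM.

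The list of 23 family relatives of the 10 genes had 14 tested, with a median log2 fold change of 0.34, and 2 were called higher. They were Cd244, the receptor of Cd48, and Slamf9. Cd244 was at 0.10, 0.22 and 0 CPM in WT mice and at 1.26, 1.73 and 1.76 CPM in GFAP-IL6 mice, on 0 to 4 reads per WT mouse and 12 to 68 reads per GFAP-IL6 mouse. The call of Slamf9 (log2 fold change 1.44, adjusted p = 0.0430, edgeR quasi-likelihood test) was lost when any mouse other than WT mouse 2 was left out, where the adjusted p ran from 0.0872 to 0.252, and under down-sampling to equal totals (adjusted p = 0.176). The tetraspanin Cd81, which most brain cells express, had a log2 fold change of 0.30 (adjusted p = 0.160), and the lysosomal relative Laptm4a one of -0.04 (adjusted p = 0.944). Cd63 passed the adjusted p at 0.47 on the log2 scale (adjusted p = 0.00754), but not without GFAP-IL6 mouse 3 (adjusted p = 0.0721), and was under the limit on the fold change.

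**Figure D4:**
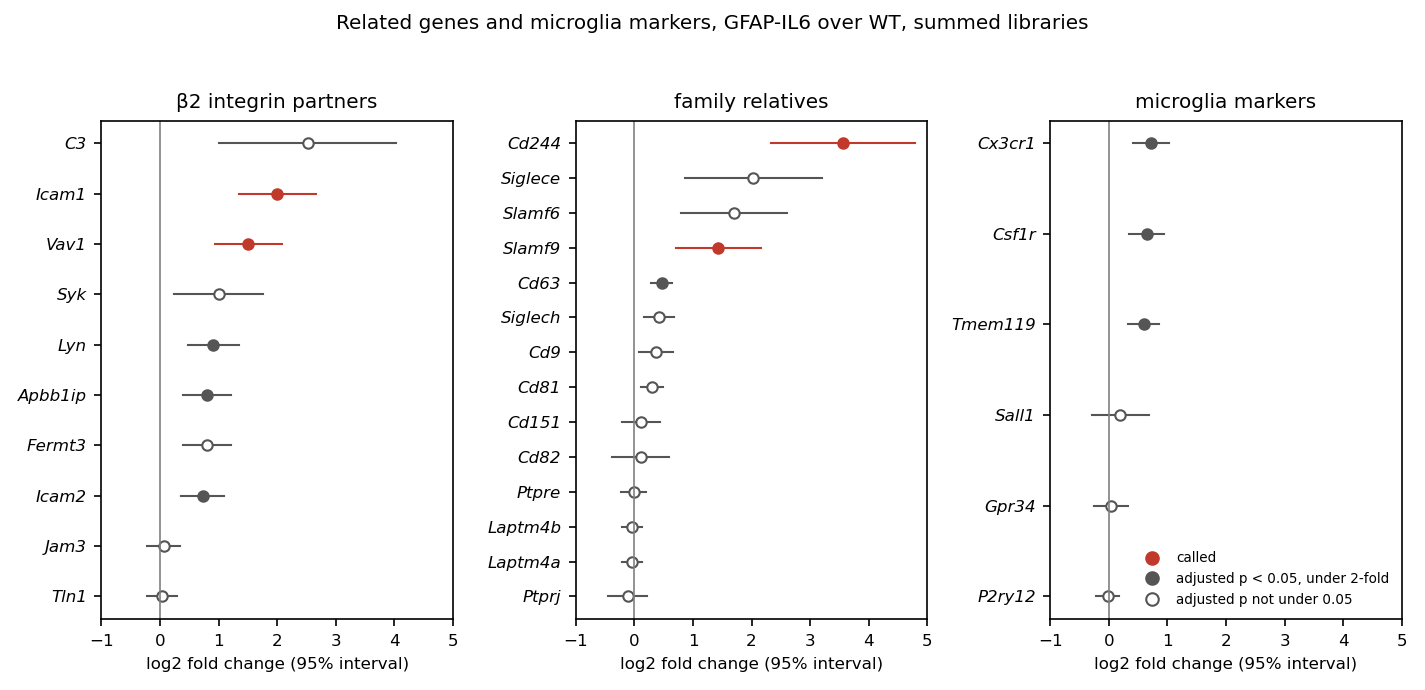
Log2 fold change, GFAP-IL6 over WT in the summed libraries, of the tested genes in 3 lists, β2 integrin partners, family relatives of the 10 genes, and microglia markers, with 95% intervals; red symbols were called, filled grey symbols passed the adjusted p with a change under 2-fold, and open symbols did not pass. The called genes are Icam1, Vav1, Cd244 and Slamf9, and no microglia marker is red.

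Markers of the cells that could carry these genes were read in the same fit. Of 6 microglia markers 3 passed the adjusted p as higher and none reached the limit on the fold change. They were Cx3cr1 (log2 fold change 0.72, adjusted p = 0.0119, edgeR quasi-likelihood test), Csf1r (0.64, adjusted p = 0.0229) and Tmem119 (0.59, adjusted p = 0.0212). The other 3 did not pass, with P2ry12 at -0.02 (adjusted p = 0.985), Gpr34 at 0.04 (adjusted p = 0.975) and Sall1 at 0.20 (adjusted p = 0.890). Without GFAP-IL6 mouse 3 none of the 6 markers passed, with Cx3cr1 at an adjusted p of 0.0904, Csf1r at 0.153 and Tmem119 at 0.201. Cx3cr1 and Csf1r also failed without WT mouse 1 (0.0659 and 0.0954), Csf1r without WT mouse 2 (0.0569), and Tmem119 without WT mouse 2 (0.0633), WT mouse 3 (0.0507) or GFAP-IL6 mouse 2 (0.103). The summed CPM of the 6 markers was 190.0 to 205.0 in WT mice and 232.0 to 311.0 in GFAP-IL6 mice, so it moved in the same direction as the 10 genes. The part of the microglia markers in the rise of the 10 genes was not tested.

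Of 6 neutrophil markers 3 were tested and 1 was called, Csf3r, the receptor of G-CSF, which was at 0.73, 2.16 and 0.52 CPM in WT mice and at 3.48, 4.12 and 6.51 CPM in GFAP-IL6 mice. Its call (log2 fold change 1.97, adjusted p = 0.0142, edgeR quasi-likelihood test) was lost without WT mouse 1 (1.64, adjusted p = 0.0741) and without GFAP-IL6 mouse 3 (1.64, adjusted p = 0.152). Of the markers not tested, Ly6g had 0 reads in all 24 libraries, of both genotypes. Retnlg had 6, 1 and 0 reads in WT mice 1, 2 and 3 and 1, 0 and 15 reads in GFAP-IL6 mice 1, 2 and 3. Mpo had 10, 2 and 0 reads and 1, 0 and 5 reads in the same order. S100a8 and S100a9, the other neutrophil markers tested, did not pass and overlapped between the genotypes. Their log2 fold changes were 0.60 (adjusted p = 0.834) and 0.55 (adjusted p = 0.910, both by edgeR's quasi-likelihood test). The neutrophil list summed to 0.918 to 5.54 CPM in WT mice and 4.85 to 11.6 CPM in GFAP-IL6 mice, with overlap. Of 4 monocyte, 7 T cell, 4 B cell and 4 NK cell markers, 1, 1, 1 and 0 were tested and none passed, namely Ccr2 (adjusted p = 0.668), Lck (adjusted p = 0.524) and Cd79b (adjusted p = 0.715).

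The monocyte and T cell lists were low in both genotypes and higher in every GFAP-IL6 mouse than in any WT mouse. Of single genes tested, 8.43% were separated in this way. Few reads carried the monocyte list, with Ccr2 at 1 to 13 reads per WT mouse and 6 to 44 reads per GFAP-IL6 mouse. Most of the T cell sum was Lck, at 1.25 to 1.33 CPM in WT mice and 1.79 to 2.54 CPM in GFAP-IL6 mice. The monocyte list summed to 0.262 to 0.720 CPM in WT mice and 0.949 to 2.23 CPM in GFAP-IL6 mice, the T cell list to 1.57 to 1.83 and 2.32 to 3.63 CPM, and the B cell list, with overlap, to 0.393 to 0.941 and 0.863 to 1.40 CPM. The NK cell list was at 0 to 0.609 CPM and at 0.596 to 0.949 CPM, with overlap. None of 5 border macrophage markers passed, with log2 fold changes of -1.159 to 0.535. Their sum overlapped between the genotypes at 10.2 to 12.8 CPM in WT mice and 9.38 to 12.4 CPM in GFAP-IL6 mice. Most of that sum was Pf4, at 6.69 to 8.53 CPM in WT mice and 5.06 to 6.87 CPM in GFAP-IL6 mice. The part of any of these cells in the rise of the 10 genes was not tested.

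Other lists showed no call. None of 5 neuron, 3 astrocyte, 3 oligodendrocyte or 3 blood markers passed the adjusted p, and 1 of 3 endothelial markers, Flt1, passed it at 0.70 on the log2 scale (adjusted p = 0.00637, edgeR quasi-likelihood test). The pass of Flt1 was lost without WT mouse 2 (adjusted p = 0.0595) and without GFAP-IL6 mouse 2 (adjusted p = 0.0565), and Cldn5 was at 0.83 (adjusted p = 0.113). The 3 endothelial markers summed to 21.8 to 26.6 CPM in WT mice and 33.9 to 43.5 CPM in GFAP-IL6 mice. Their sum thus differed between the genotypes in the same direction as that of the 10 genes, and the part of these markers in the result was not tested. The 3 choroid plexus markers did not pass, with the sum at 105.0 to 4060 CPM in WT mice and 76.8 to 747.0 CPM in GFAP-IL6 mice. Without WT mouse 3, which carried the highest of those values, 7 of the 10 genes were called.

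The genes outside the 10 whose profile over the 6 mice lay nearest to their mean profile were Lgals9, Lgals3bp, Hk2, Trem2 and Cebpd. The root mean square distance of centred log2 CPM was 0.047 to 0.080 over 6 mice, among 10731 genes with a mean of at least 5 CPM. The 10 genes themselves lay at 0.131 for Itgb2 to 0.335 for Cd48 from that mean. The points share the split into genotypes, so the likeness is a description.

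Of the 10 genes 5 overlap another gene in the annotation, 3 of them over exons, and the strand setting of the counting is not given in the sources used here. Cd52 (chromosome 4, 134082448 to 134095082, minus strand, GRCm38) shares exons with a gene on the opposite strand that the table lists as Aim1l, and Cd37 (chromosome 7, 45233632 to 45239115, minus strand) with Tead2. Aim1l was at 2.34 ± 0.887 CPM in the WT group and 2.87 ± 0.479 CPM in the GFAP-IL6 group (SD, n = 3 each, adjusted p = 0.904 in edgeR), and Tead2 was at 2.38 ± 0.210 CPM and 1.92 ± 0.858 CPM (adjusted p = 0.931). Itgam (chromosome 7, 128062640 to 128118491, plus strand) shares exons on the same strand with Gm49368 in the later annotation used for positions. Gm49368 was not analysed here. Reads on the shared exons cannot be told apart by position, and how they were counted was not checked. Ptprc lies at chromosome 1, 138062861 to 138175708, on the minus strand, and Itgb2 at chromosome 10, 77530252 to 77565708, on the plus strand. Ptprc and Cd48 overlap the gene records A130071D04Rik and Gm37010 on the same strand without sharing exons.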

How the data were processed

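The authors trimmed polyA from 3'Pool-seq reads, aligned them with STAR 2.4 to mm10 and counted uniquely aligned reads on GENCODE vM6 genes with featureCounts of the Subread package; the submitters' processing notes list hg19, while the gene identifiers are those of mouse. The deposited values are raw counts per gene and library, with no normalization, and no column of another series is present. Positions came from a later annotation of the same build, and promoter sequences from RefSeq.

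Groups were taken from the labels. Counts were summed over the 4 libraries from 1 mouse, and genotypes were compared with edgeR 4.0.16 (R 4.3.3, TMM, filterByExpr, quasi-likelihood test, Benjamini-Hochberg adjustment over all genes tested), for the sums and within each of 4 sets. Interactions and technical contrasts used all 24 libraries with the mouse as a block. CPM are TMM-scaled, and a pseudocount of 1 was used in log2 CPM. Alternatives were DESeq2 1.42.0, its size factors, no filter, at least 10 counts, a replicate block, leaving out each mouse, down-sampling, no limit on the fold change, and limma 3.58.1 voom. On simulated counts edgeR recovered 99% of 200 genes changed 4-fold among the 14621 tested in the summed comparison. The simulation used the same fixed dispersion for every gene, and recovery of smaller changes, which most of the 10 genes had, was not tested. The 10 genes and all lists were chosen with earlier results of these data known. Named genes were the 10, Il6 and Gfap, in each list the 2 called with the largest change and the 2 not called with the highest mean CPM, and the 5 nearest profiles. The neuron, astrocyte, oligodendrocyte and blood lists are given by counts and sums, without naming the genes this rule selects from them. The border macrophage and choroid plexus lists are given so in part. Cd63, Tmem119, Cx3cr1, Gpr34, Sall1, Ly6g, Retnlg, Mpo, Itgal, Itgax, Itgad, Aim1l and Tead2 were added after their values were seen. In the β2 integrin list and in the microglia list 1 gene each is not reported here, and both were left out of counts and sums after their values were known. A ratio of the 10 genes to the microglia markers is not given, since it depended on which markers were summed. Read counts of PCR products without molecular identifiers are not independent molecules.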

Additional observations from a re-analysis of the deposited data

How the results depend on the processing

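The 10 genes kept a log2 fold change above 0 in each alternative fit of the summed libraries that tested them (Cd48 was not tested where 10 counts were required or in limma-voom), and 8 were called as reported, with 5 to 9 over the fits that left out 1 mouse (5 without GFAP-IL6 replicate 3). All genes called numbered 180, and 106 to 201 over those fits. The paired analysis with a replicate block gave 8 of the 10 genes and 149 genes in all. Deviations of same-numbered mice from their group means had r = -0.05, -0.03 and -0.03 over all genes tested. The labels give only a number for each mouse. These correlations cannot exclude a pairing, because they rest on 3 mice per genotype and could miss one that acts on few genes. Within sets the number called moved from 5 to 3 with 2 ng in set B and from 5 to 3 with 1 ng in set B under the replicate block, from 5 to 3 and from 5 to 2 under DESeq2, and to 3, 4 and 3 with 2 ng in set B, 1 ng in set A and 1 ng in set B where 10 counts were required in every library. Leaving out 1 mouse gave 3 to 6 with 2 ng in set A, 2 to 7 with 2 ng in set B, 3 to 7 with 1 ng in set A and 1 to 4 with 1 ng in set B. Calls of all genes were not counted in these alternatives within sets. Without the mouse block 0 of the 10 genes differed between amounts and 0 between sets. The filters and the left-out mice reduce what is tested, and the cause of the other changes was not tested.

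Among genes outside the 10, Ttr changed sign under the replicate block (0.50) and without WT replicate 3, with values of -2.53 to 1.69 over the fits that left out 1 mouse. Jam3 ranged from -0.11 to 0.16, Tln1 from -0.063 to 0.11 and Laptm4a from -0.083 to 0.014 over those fits, and Tln1 was at -0.022 in limma-voom over 24 libraries. P2ry12 ranged from -0.074 to 0.036 and Gpr34 from -0.13 to 0.11 over the fits that left out 1 mouse, and Gpr34 was at -0.060 after down-sampling. Of these genes only Ttr was called in an alternative, lower with no filter on low counts (-1.79, adjusted p = 3.71e-69). Under the replicate block Slamf9 lost its call (adjusted p = 0.0956) and Tmem119 its pass of the adjusted p (0.0528).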
